A study of Mus musculus with 16 samples.

Results

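The 38 genes described here carry out or control mitosis: they encode cyclins and mitotic kinases, spindle checkpoint proteins, kinetochore proteins, kinesin motors, the chromosomal passenger complex, condensin subunits and the triggers of anaphase. They were listed by symbol and by function, with earlier results of these data known. All 38 were found among the 23284 gene symbols counted in each of 16 mouse lung tumors. All 38 passed the filter on low counts, which left 14825 genes in the test, and the lowest count of any of them in any tumor was 104 reads.

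The tumors came from mice of a mixed 129/SvJ and C57BL/6 strain background. They formed 2 groups by genotype: 9 tumors labelled RPMax-/-, here called Max null, and 7 labelled RPMaxwt, here called Max wild-type. In both groups genes were deleted by an adenovirus that carries Cre recombinase under the CMV promoter, given into the trachea; this promoter is active in many cell types, so recombination was not tied to 1 lung cell type. The labels leave the letters RP unexplained; in this field they usually stand for Rb1 and Trp53, both floxed. No ages, and no statement that each tumor came from a separate mouse, are given, so a p-value here reflects how much these 16 samples vary. The measurement was RNA sequencing of whole tumors from total RNA.

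Mitosis begins when cyclin B and CDK1, released from inhibitory phosphorylation by CDC25 phosphatases, drive chromosome condensation and the assembly of the spindle. Kinetochores on the centromeres bind spindle microtubules, and the checkpoint proteins hold back the anaphase-promoting complex and its activator CDC20 until every chromosome is attached; securin is then destroyed and separase cuts the cohesin rings. Transcripts of most such genes peak in G2 and mitosis under B-MYB, FOXM1 and the MuvB complex, which acts at a promoter element called the cell cycle genes homology region (CHR), while NF-Y binds CCAAT boxes nearby. MAX is the obligate partner through which MYC, MYCL and MYCN bind E-boxes with the letters CACGTG. Small cell lung cancer, of which the RP mouse is a model, is a rapidly dividing neuroendocrine tumor.

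The promoters show the elements that these genes share and that the choice of the genes did not use. The sequences below are shown because they span the observed behaviors: Cdk1, Ccnb2, Smc2 and Birc5 are among the 10 genes with the smallest p, Cdc20 and Top2a are among the 4 most abundant per transcript length, and Kif11 had the highest difference between groups. Each is RefSeq sequence of build GRCm38.p6, 5′ to 3′ on the gene's own strand, and runs from 150 bases before the start toward it, with bases before the transcription start counted back from -1. Each stops at the start or before the first base in any annotated GENCODE exon. Capitals mark the CHR letters (TTTGAA or TTCGAA, which read TTCAAA or TTCGAA on the opposite strand) and the CCAAT box (ATTGG on the opposite strand).
Cdk1: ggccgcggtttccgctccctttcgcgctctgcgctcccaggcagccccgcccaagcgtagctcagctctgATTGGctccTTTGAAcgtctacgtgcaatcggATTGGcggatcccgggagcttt
Ccnb2: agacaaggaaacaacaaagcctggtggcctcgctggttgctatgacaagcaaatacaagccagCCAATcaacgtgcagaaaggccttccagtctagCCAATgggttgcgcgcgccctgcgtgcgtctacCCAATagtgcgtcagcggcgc
Cdc20: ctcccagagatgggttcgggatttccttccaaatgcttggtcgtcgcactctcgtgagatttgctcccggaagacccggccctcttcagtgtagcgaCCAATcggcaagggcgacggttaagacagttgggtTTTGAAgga
Smc2: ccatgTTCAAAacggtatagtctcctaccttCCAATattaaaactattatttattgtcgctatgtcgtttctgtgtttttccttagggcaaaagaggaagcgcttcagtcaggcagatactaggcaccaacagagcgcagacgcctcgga
Birc5: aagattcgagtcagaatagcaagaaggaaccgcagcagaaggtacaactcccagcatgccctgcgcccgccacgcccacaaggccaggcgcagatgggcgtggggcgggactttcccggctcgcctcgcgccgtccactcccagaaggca
Kif11: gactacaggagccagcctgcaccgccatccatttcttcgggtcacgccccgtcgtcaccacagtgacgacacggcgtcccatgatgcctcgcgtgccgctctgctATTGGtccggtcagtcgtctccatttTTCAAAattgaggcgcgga
Top2a: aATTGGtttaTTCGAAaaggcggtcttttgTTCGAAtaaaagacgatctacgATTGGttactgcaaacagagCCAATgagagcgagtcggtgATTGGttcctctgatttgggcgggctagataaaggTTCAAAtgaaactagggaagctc
These stretches lie at chr10:69352939-69353062 on the minus strand, chr9:70421555-70421704 on the minus strand, chr4:118437353-118437493 on the minus strand, chr4:52439071-52439220 on the plus strand, chr11:117849087-117849236 on the plus strand, chr19:37376232-37376381 on the plus strand and chr11:99024190-99024339 on the minus strand.

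In Ccnb2 the 3 CCAAT boxes began at bases -87, -54 and -21, and its CHR letters lay outside the stretch shown, at -167 and 5 bases into the transcript. Top2a held 3 matches to the CHR letters and 4 CCAAT boxes in the stretch shown. Birc5 held neither element there.

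Promoter sequence (250 bases before to 50 after each start) was matched for 31 of the 38 genes. Ccna2, Cdc25c, Aurkb, Incenp, Kif20a, Tpx2 and Smc4 were not matched. Letters were searched on both strands, and none of the 4 motifs searched contains another. The CHR letters occurred in 23 of 31 (74.2%), against 16.1% of 10478 tested genes with a promoter and 19.2% of all 32851 promoters in the reference table. The 8 genes without them were Birc5, Ccnb1, Cenpe, Mad2l1, Ncaph, Nek2, Nuf2 and Pttg1. CCAAT occurred in 24 of 31 (77.4%) against 42.5% of tested genes with a promoter, and 21 of 31 (67.7%) held both elements against 7.85%. GGCGGG, the letters of a GC box, occurred in 23 of 31 (74.2%) against 66.0%. The E-box letters CACGTG occurred in 2 of 31, Espl1 and Ttk (6.45%), against 11.4%. These are letter matches and not measured binding. Genes with and without the CHR letters had a median log2 difference between groups of -0.47 and -0.49.

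Each tumor had 8.66 to 15.1 M reads in genes. The share of reads aligned to more than 1 place was 9.17% to 11.8% in the null tumors and 12.3% to 22.2% in the wild-type tumors, with the highest shares in wild-type tumors 2, 4 and 7. In those 3 tumors long transcripts were also low against short ones (Spearman's rho of transcript length with deviation from the gene's mean, across genes, -0.18 to -0.55, the lowest in tumor 7), while 8 of the 9 null tumors had rho of 0.15 to 0.28 and tumor 3 had -0.09. Wild-type tumors 1, 3, 5 and 6 had rho of 0.19, -0.13, 0.07 and -0.05. Their multi-aligned shares, 12.3% to 14.6%, also lay above every null tumor, so a fit without tumors 2, 4 and 7 still holds that difference. Library character and genotype therefore moved together. The mean of the mitosis genes, the genes called and the 10 mitosis genes with the smallest p are given with and without wild-type tumors 2, 4 and 7. The part of those 3 tumors in the other results was not tested. Of 10 markers of neuroendocrine cells, 0 were called, with 6 differences above 0 and 4 below 0. Insm1 (0.11), Chga (0.18) and Syp (0.74) were above 0 and present in every tumor. Ncam1 (-0.16), Uchl1 (-0.20) and Dll3 (-0.40) were among those below 0. Chga measured 288 to 1423 CPM in null and 235 to 846 CPM in wild-type tumors. Of 6 macrophage markers, C1qa, C1qb, C1qc and Cd68 were lower in null tumors and Csf1r (0.35) and Emr1 (-0.03) had no call; the 6 summed to 120 to 277 CPM in null and 174 to 568 CPM in wild-type tumors. The 5 endothelial, 5 fibroblast, 5 alveolar type 2, 3 club, 3 ciliated and 3 tested B cell markers had no call, and Lck was lower among 4 T cell markers tested. Without wild-type tumors 2, 4 and 7 these 5 calls were lost, at differences of -1.14 (C1qb), -1.08 (C1qc), -0.91 (Cd68), -0.76 (C1qa) and -1.0 (Lck). The part of these other cell types in the mitosis values was not tested. Counts over all of Max (0.18 ± 0.11 SE on the log2 scale, edgeR adjusted p = 0.281) do not check the genotype, since the counts do not separate deleted from retained exons, so tumors are called by their labels.

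The mitosis genes formed a shared level that differed widely from tumor to tumor and overlapped between genotypes. Levels are in CPM, counts per M reads in genes with edgeR's TMM scaling, and differences are log2, null minus wild-type. The mean log2 CPM over the 38 genes in null tumors 1 to 9 was 6.53, 5.74, 5.56, 5.95, 7.54, 6.78, 6.25, 6.41 and 7.25. In wild-type tumors 1 to 7 it was 7.20, 7.42, 5.99, 6.94, 6.95, 6.77 and 7.10. Null tumor 5 was the highest of the 16 and null tumors 2, 3 and 4 were the lowest, while wild-type tumor 3 stood apart below the other 6 of its group. The means were 6.45 ± 0.66 (SD, n = 9) in null and 6.91 ± 0.46 (SD, n = 7) in wild-type, a difference of -0.46, and 7 of the 9 null tumors lay below the wild-type median. Lowest to highest, the range was 3.94-fold among null tumors and 2.69-fold among wild-type tumors. Without wild-type tumors 2, 4 and 7 the difference was -0.28.

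**Figure D1:**
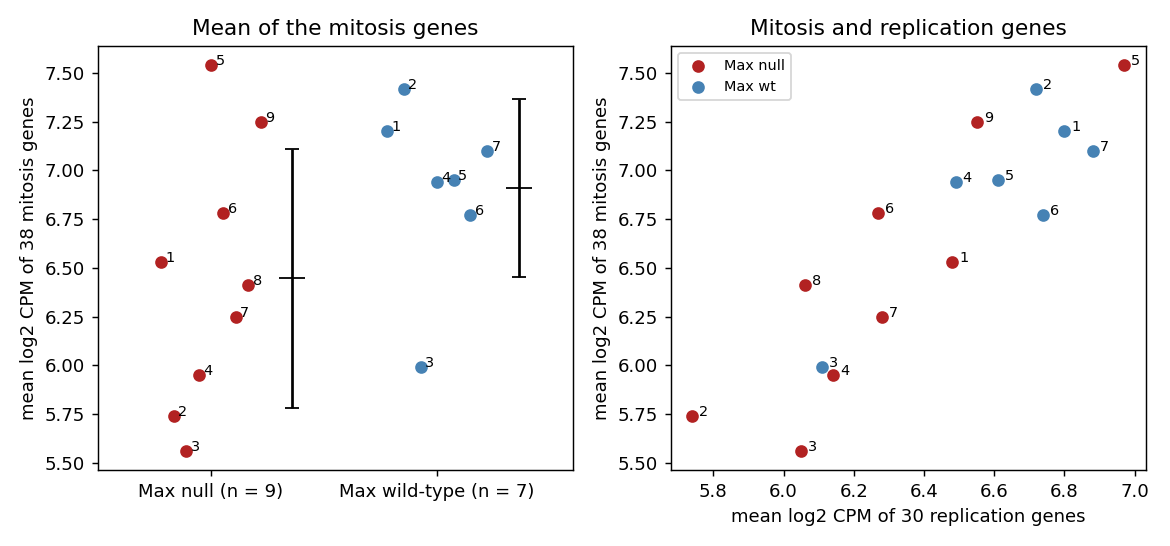
Left: mean log2 CPM of the 38 mitosis genes in each tumor (vertical axis), by group; points are tumors with their numbers, and the bar is the mean with SD. Right: the same mean (vertical axis) against the mean log2 CPM of 30 DNA replication genes (horizontal axis). The null tumors span 5.56 to 7.54 and the wild-type tumors 5.99 to 7.42, so the groups overlap, and null tumor 5 is the highest on both axes.

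The extreme values of single genes fell in a few tumors. Of the 38 genes, 36 had their lowest value in a null tumor (22 in null tumor 3 and 10 in null tumor 2), and 17 had their highest value in a null tumor (12 in null tumor 5 and 5 in null tumor 9). Wild-type tumors 2 and 7 held the highest value of 9 genes each. No gene had groups without overlap, against 1.56% of all genes tested.

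**Figure D2:**
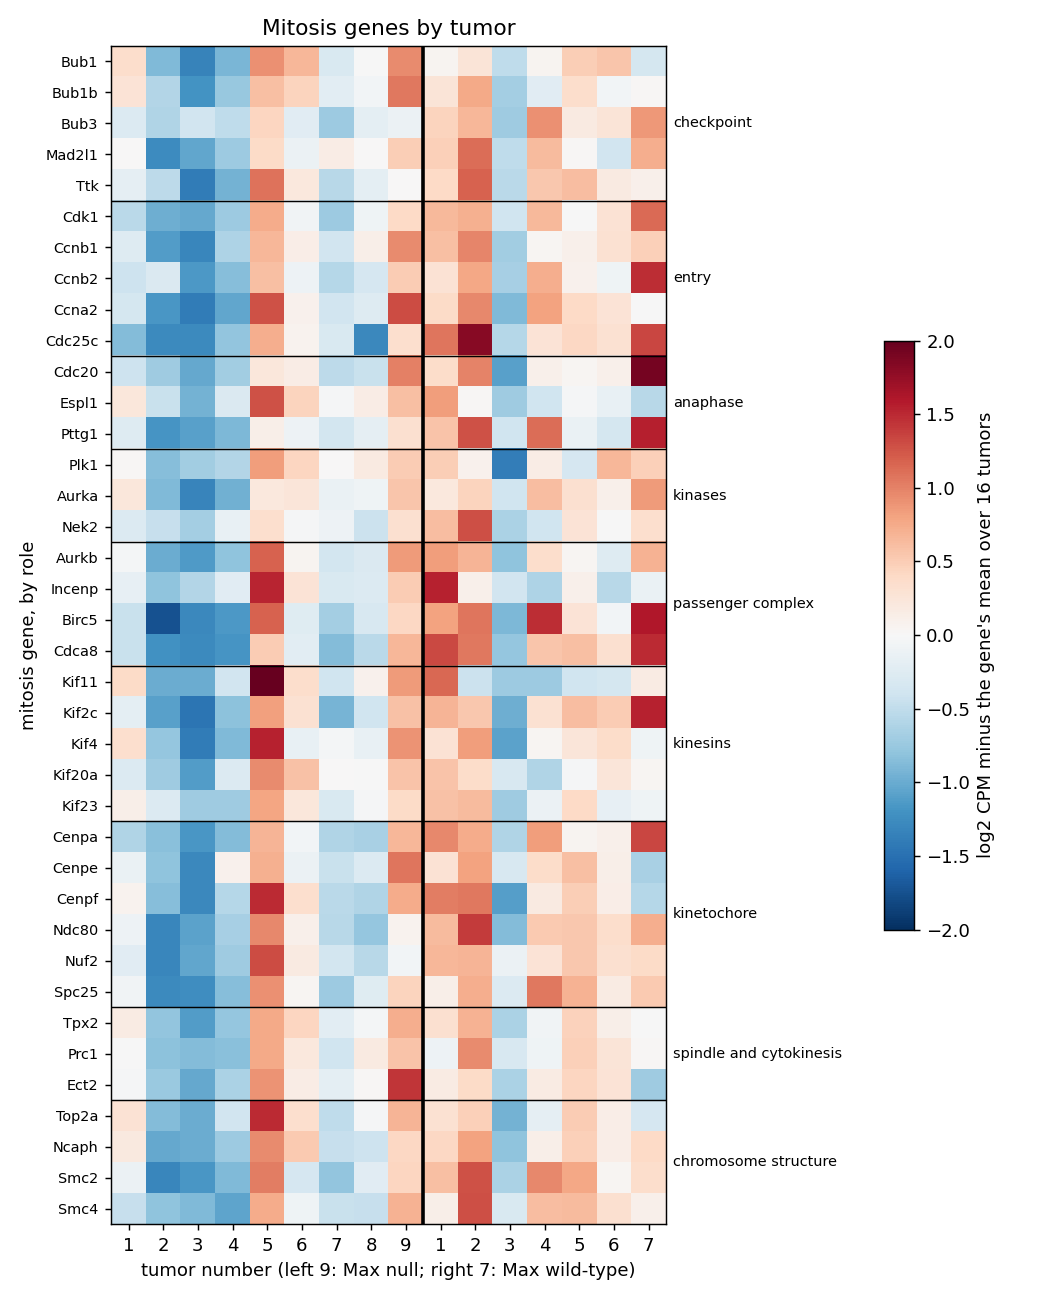
Each row is a mitosis gene and each column a tumor, with the 9 null tumors left of the black line and the 7 wild-type tumors right of it; color is log2 CPM minus the gene's mean over 16 tumors. Null tumor 5 is high and null tumors 2, 3 and 4 are low across most rows, while wild-type tumor 7 is high in Cdc20, Birc5, Pttg1 and Cdca8 and low in Cenpe and Ect2.

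Between genotypes, 4 of the 38 genes were lower in null tumors at an adjusted p of 0.05 (10.5%) and 0 were higher, by edgeR's quasi-likelihood test with Benjamini-Hochberg adjustment over all tested genes. Over all tested genes 8.64% were called lower and 7.40% higher, so the share of mitosis genes called lower was near that of all genes. At an unadjusted p under 0.05, 13 were lower and 0 higher, against 17.9% and 14.9% of all genes, and DESeq2 called 6 lower and 0 higher, against 12.1% and 10.4%. The median difference was -0.42 (range -1.19 to 0.60) against -0.03 over all tested genes, and 31 of 38 differences were below 0 against 52.4% of all genes. Without wild-type tumors 2, 4 and 7, 0 of the 38 were called in either direction (0.871% of all genes lower and 0.805% higher) and the median was -0.18. With the multi-aligned share as a covariate 0 were called lower (0.0135% of all genes), and the 4 differences moved to -0.19 for Bub3, -0.75 for Cdc25c, -0.03 for Pttg1 and -0.70 for Cdca8. Without null tumor 5, 14 were called lower (10.2% of all genes), and without wild-type tumor 3, 9 were (10.3%). As the tumors were sequenced whole, fewer dividing cells and less of these transcripts per cell cannot be told apart.

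**Figure D3:**
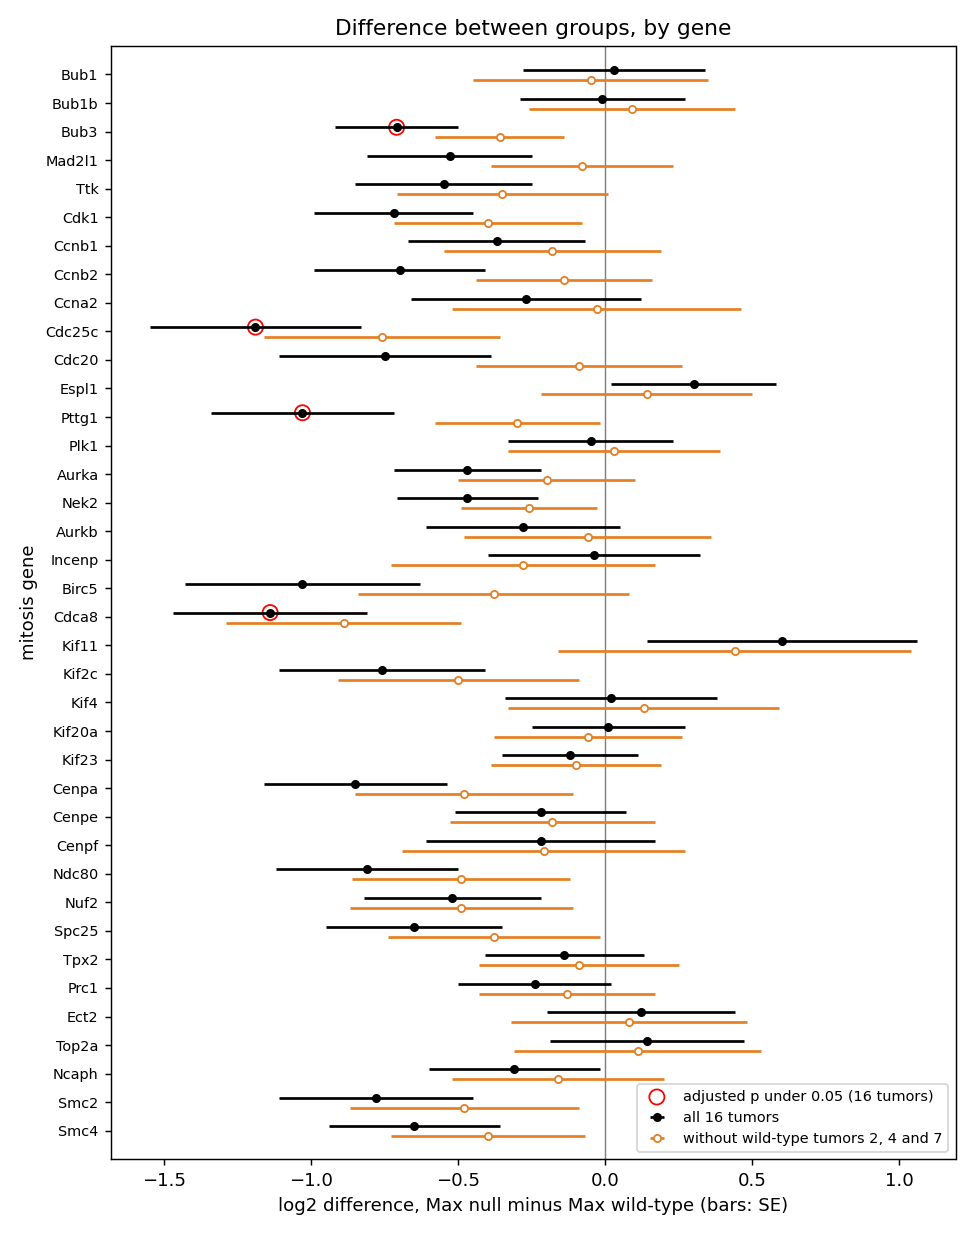
Log2 difference (horizontal axis, null minus wild-type, bars SE) of each mitosis gene, with all 16 tumors in black and without wild-type tumors 2, 4 and 7 in orange; rings mark the 4 genes called lower, Bub3, Cdc25c, Pttg1 and Cdca8. Most black points lie left of 0, and the orange points of those 4 genes lie nearer to 0, at -0.36, -0.76, -0.30 and -0.89.

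Among the genes for entry into mitosis, Cdc25c, the phosphatase that activates CDK1, was the gene with the lowest difference of the 38. It measured 10.1, 14.2 and 40.5 CPM (lowest, median and highest) in null tumors and 16.6, 32.8 and 86.7 CPM in wild-type tumors. Wild-type tumors 2, 7 and 1 were high, 5 null tumors lay below every wild-type tumor, and null tumors 5, 6, 7 and 9 overlapped the other group. Cdc25c was lower in null tumors by edgeR (-1.19 ± 0.36 SE, adjusted p = 0.0345), and the call was lost without the 3 wild-type tumors (-0.76 ± 0.40 SE, adjusted p = 0.311). A stretch equal to 23.7% of its transcript has a copy of at least 95% identity elsewhere, so its count is uncertain. Cdk1, the kinase that drives mitosis, measured 83.3, 116 and 283 CPM in null and 128, 264 and 372 CPM in wild-type tumors. Wild-type tumor 7 was highest, and 5 null tumors lay below every wild-type tumor, while the other 4 overlapped the wild-type values. Its difference did not pass the test (-0.72 ± 0.27 SE, edgeR adjusted p = 0.0776), and was -0.40 ± 0.32 SE without the 3 wild-type tumors.

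Ccnb2, a B-type cyclin and partner of CDK1, measured 37.8, 66.7 and 128 CPM in null and 53.0, 103 and 234 CPM in wild-type tumors. Wild-type tumor 7 stood above all others, and the groups overlapped over most of their range. The difference was -0.70 ± 0.29 SE (edgeR adjusted p = 0.105), and -0.14 ± 0.30 SE without wild-type tumors 2, 4 and 7. Ccna2, cyclin A2, which acts from S phase to early mitosis, measured 66.9, 138 and 437 CPM in null and 95.3, 230 and 343 CPM in wild-type tumors. Null tumors 9 and 5 were the highest of all 16, and 3 null tumors lay below every wild-type tumor. The difference was -0.27 ± 0.39 SE (edgeR adjusted p = 0.663). Ccnb1, the main mitotic cyclin, had a difference of -0.37 ± 0.30 SE (edgeR adjusted p = 0.421), and 51.9% of its transcript has a near copy, so its level is uncertain.

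The spindle checkpoint genes held the smallest called change. Bub3, which brings BUB1 and BUBR1 to unattached kinetochores, measured 84.3, 116 and 189 CPM in null and 85.8, 190 and 263 CPM in wild-type tumors. Null tumor 5 stood above the other 8 null tumors and wild-type tumor 3 was as low as the lowest null tumors, so the groups overlapped. Bub3 was lower in null tumors by edgeR (-0.71 ± 0.21 SE, adjusted p = 0.0316), and no longer so without wild-type tumors 2, 4 and 7 (-0.36 ± 0.22 SE, adjusted p = 0.392). Its binding partners Bub1 and Bub1b, both kinetochore proteins of the same checkpoint, differed by 0.03 ± 0.31 SE and -0.01 ± 0.28 SE. Mad2l1, which forms the inhibitor of CDC20, and Ttk, the kinase that starts checkpoint signaling, differed by -0.53 ± 0.28 SE and -0.55 ± 0.30 SE and did not pass the test.

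Of the genes that start anaphase, Pttg1 was called lower, and Espl1 and Cdc20 were not called. Pttg1, securin, the inhibitor of separase, measured 25.4, 48.0 and 72.0 CPM in null and 43.6, 85.1 and 169 CPM in wild-type tumors. Every null tumor lay below the wild-type median; wild-type tumors 7, 2 and 4 were the highest 3 of all, and wild-type tumors 3, 5 and 6 lay among the null tumors. Pttg1 was lower in null tumors by edgeR (-1.03 ± 0.31 SE, adjusted p = 0.0316), but without tumors 2, 4 and 7 the difference was -0.30 ± 0.28 SE (adjusted p = 0.595). Espl1, separase, the protease that opens cohesin, had a difference of 0.30 ± 0.28 SE, which did not pass the test, with 6 of 9 null tumors above the wild-type median. Its difference was 0.00 ± 0.25 SE with each library's length trend taken out. With the multi-aligned share as a covariate, Espl1 was at 0.02 and Pttg1 at -0.03. Cdc20, the activator of the anaphase-promoting complex, measured 71.6, 106 and 293 CPM in null and 68.3, 156 and 545 CPM in wild-type tumors. Wild-type tumor 7 stood above all others, and no null tumor lay below the lowest wild-type tumor. Its difference was -0.75 ± 0.36 SE (edgeR adjusted p = 0.159) and -0.09 ± 0.35 SE without the 3 wild-type tumors.

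The 4 subunits of the chromosomal passenger complex, which corrects wrong attachments and helps to complete cytokinesis, ran from near 0 to the second lowest difference of all. Cdca8, borealin, which places the complex on centromeres, measured 37.3, 62.5 and 143 CPM in null and 52.8, 137 and 253 CPM in wild-type tumors. Wild-type tumors 7, 1 and 2 were highest, 4 null tumors lay below every wild-type tumor, and the other 5 overlapped the wild-type values. Cdca8 was lower in null tumors by edgeR (-1.14 ± 0.33 SE, adjusted p = 0.0304), and -0.89 ± 0.40 SE without the 3 wild-type tumors (adjusted p = 0.240). Birc5, survivin, which binds borealin in the same complex, measured 20.4, 50.1 and 154 CPM in null and 36.5, 119 and 206 CPM in wild-type tumors. Null tumor 5 lay above the wild-type median, wild-type tumors 7 and 4 were highest, and 3 null tumors lay below every wild-type tumor. Its difference of -1.03 ± 0.40 SE did not pass the edgeR test (adjusted p = 0.0832) and passed with DESeq2 (adjusted p = 0.0496). By edgeR it was -0.38 ± 0.46 SE without the 3 wild-type tumors. Aurkb, the kinase of the complex, and Incenp, its scaffold, differed by -0.28 ± 0.33 SE and -0.04 ± 0.36 SE.

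**Figure D4:**
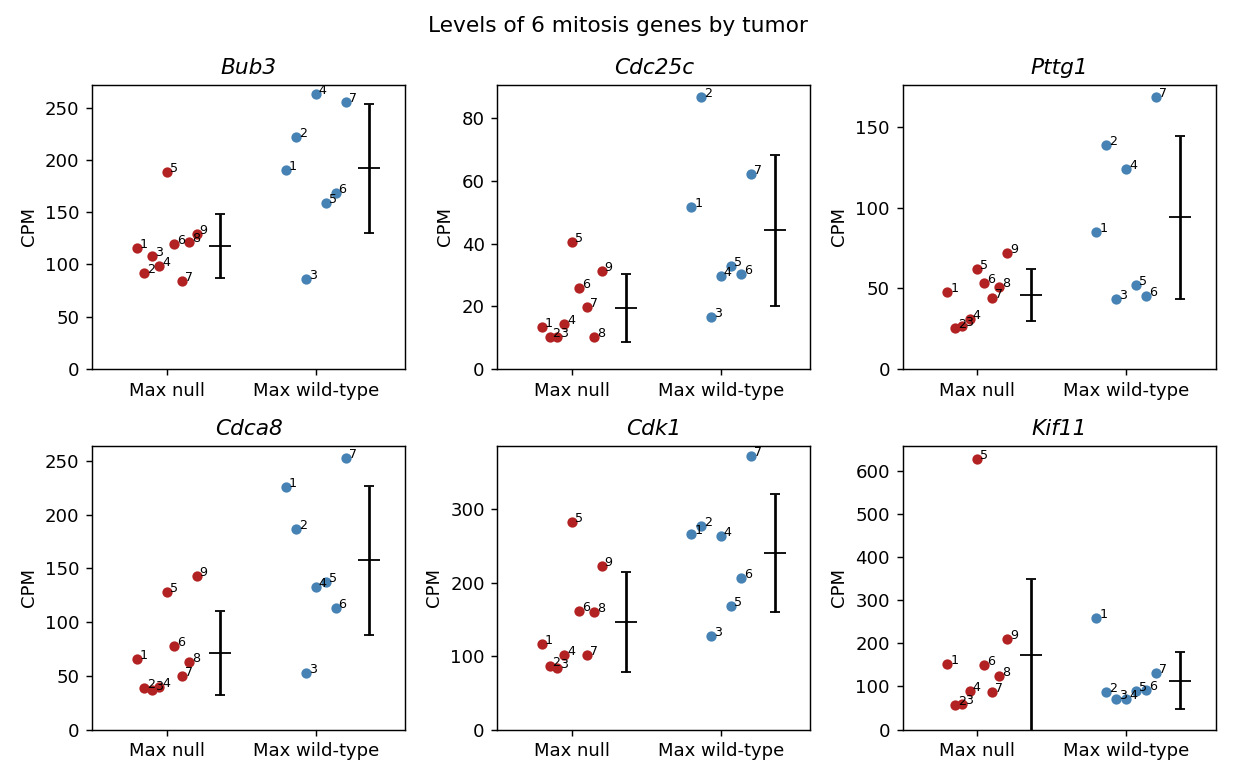
CPM (vertical axis, from 0) of 6 mitosis genes in each tumor, by group, with tumor numbers beside the points and the mean with SD as a bar; the lower end of the null SD bar of Kif11 is below 0 and is not drawn. Wild-type tumors 2, 4 and 7 hold the highest 3 Pttg1 values, and null tumor 5 alone holds the highest Kif11 value at 626 CPM.

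All 6 kinetochore genes had differences below 0, and none passed the test. Cenpa, the histone H3 variant that marks the centromere, measured 33.6, 49.4 and 121 CPM in null and 49.5, 126 and 191 CPM in wild-type tumors. In 6 null tumors it lay below every wild-type tumor, and no null tumor lay above the wild-type median, while null tumors 5, 6 and 9 overlapped the wild-type tumors. The difference was -0.85 ± 0.31 SE (edgeR adjusted p = 0.0687), and DESeq2 called it lower (adjusted p = 0.0429). By edgeR it was -0.48 ± 0.37 SE without wild-type tumors 2, 4 and 7. Ndc80, the subunit that grips the microtubule, measured 26.1, 44.1 and 125 CPM in null and 35.4, 94.1 and 170 CPM in wild-type tumors. Null tumor 5 stood above the other null tumors, wild-type tumor 2 was the highest of all, and wild-type tumor 3 lay among the null tumors. The difference was -0.81 ± 0.31 SE (edgeR adjusted p = 0.0848), and -0.49 ± 0.37 SE without wild-type tumors 2, 4 and 7. Nuf2 and Spc25, which form the same complex as NDC80, differed by -0.52 ± 0.30 SE and -0.65 ± 0.30 SE. Cenpe, a kinesin that carries chromosomes to the spindle equator, and Cenpf, a large protein of the outer kinetochore, both differed by -0.22, with SE of 0.29 and 0.39.

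The kinesin motors were split around 0, with a median of 0.01 over the 5. Kif11, the motor that pushes spindle poles apart, was the one gene above 0 by at least 0.5. It measured 58.2, 124 and 626 CPM in null and 70.3, 88.4 and 258 CPM in wild-type tumors. Null tumor 5 lay far above all others, wild-type tumor 1 stood apart in its group, and the other tumors overlapped. The difference of 0.60 ± 0.46 SE did not pass the test (edgeR adjusted p = 0.379), and it was 0.03 to 0.95 over the fits that leave out 1 tumor each. Kif2c, which takes microtubules apart at centromeres, differed by -0.76 ± 0.35 SE (edgeR adjusted p = 0.134). Kif4, Kif20a and Kif23, motors of chromosome arms and of cytokinesis, differed by 0.02 ± 0.36, 0.01 ± 0.26 and -0.12 ± 0.23 SE; in the reference annotation 31.8% of the exon bases of Kif20a lie over Cdc23 on the other strand, so Kif20a is uncertain.

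Of the 4 chromosome structure genes, Smc4 and Top2a were the most abundant of the 38 genes per transcript length, and Smc2 and Ncaph were not (46.2 and 39.8 CPM per kb). Smc4, a condensin subunit, led with a mean of 138 CPM per kb, followed by Top2a at 118, Cdc20 at 95.4 and Ccna2 at 69.7 CPM per kb; Espl1 was lowest at 9.33. Smc4 measured 259, 392 and 894 CPM in null and 433, 671 and 1313 CPM in wild-type tumors. In 6 null tumors it lay below every wild-type tumor, and null tumors 5 and 9 were higher than all wild-type tumors but tumor 2. Its difference was -0.65 ± 0.29 SE (edgeR adjusted p = 0.129), and -0.40 ± 0.33 SE without wild-type tumors 2, 4 and 7. Smc2, its partner in the condensin ring, measured 87.2, 172 and 438 CPM in null and 139, 328 and 526 CPM in wild-type tumors. Null tumor 5 reached the upper wild-type tumors, and 4 null tumors lay below every wild-type tumor. Its difference was -0.78 ± 0.33 SE (edgeR adjusted p = 0.109), and -0.48 ± 0.39 SE without wild-type tumors 2, 4 and 7.

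Top2a, topoisomerase II alpha, which untangles sister DNA, measured 281, 550 and 1563 CPM in null and 289, 609 and 791 CPM in wild-type tumors. Null tumors 5 and 9 lay above every wild-type tumor, null tumor 3 lay below every one, and the other null tumors overlapped them. The difference was 0.14 ± 0.33 SE (edgeR adjusted p = 0.799). Ncaph, the condensin I subunit that closes the ring, differed by -0.31 ± 0.29 SE. The spindle and cytokinesis genes Tpx2, Prc1 and Ect2 differed by -0.14 ± 0.27, -0.24 ± 0.26 and 0.12 ± 0.32 SE, and 21.8% of the exon bases of Prc1 lie over Rccd1 on the other strand. The mitotic kinases Plk1, Aurka and Nek2, which act at spindle poles and kinetochores, differed by -0.05 ± 0.28, -0.47 ± 0.25 and -0.47 ± 0.24 SE, and none passed the test.

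The differences of the 38 genes were related to transcript length. The 19 shorter genes (1466 to 2965 bases) had a median difference of -0.65, all 19 below 0 and 4 called lower; the 19 longer genes (3026 to 11130 bases) had a median of -0.12, with 12 below 0 and 0 called. Across the 38 genes Pearson's r of log2 length with the difference was 0.56 and Spearman's rho 0.60, and across 14660 tested genes of known length they were 0.35 and 0.39; genes share the same 16 libraries and are not independent replicates. Without wild-type tumors 2, 4 and 7 r was 0.38 over the 38 genes and 0.13 over all genes. The mean of the shorter minus the longer genes in log2 CPM was -1.07 to -0.82 in null tumors and -0.80 to 0.13 in wild-type tumors, highest in tumor 7. With each library's length trend taken out, the median over the 38 genes was -0.36, Cdk1 (-0.91, edgeR adjusted p = 0.0456) and Smc2 (-1.04, adjusted p = 0.0462) were called lower, and Bub3, Cdc25c, Pttg1 and Cdca8 were not (adjusted p = 0.0605 to 0.0808). Those 4 differences were then -0.60, -1.03, -0.78 and -0.92, against -0.71, -1.19, -1.03 and -1.14 without the correction. In that fit 6.50% of all tested genes were called lower.

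**Figure D5:**
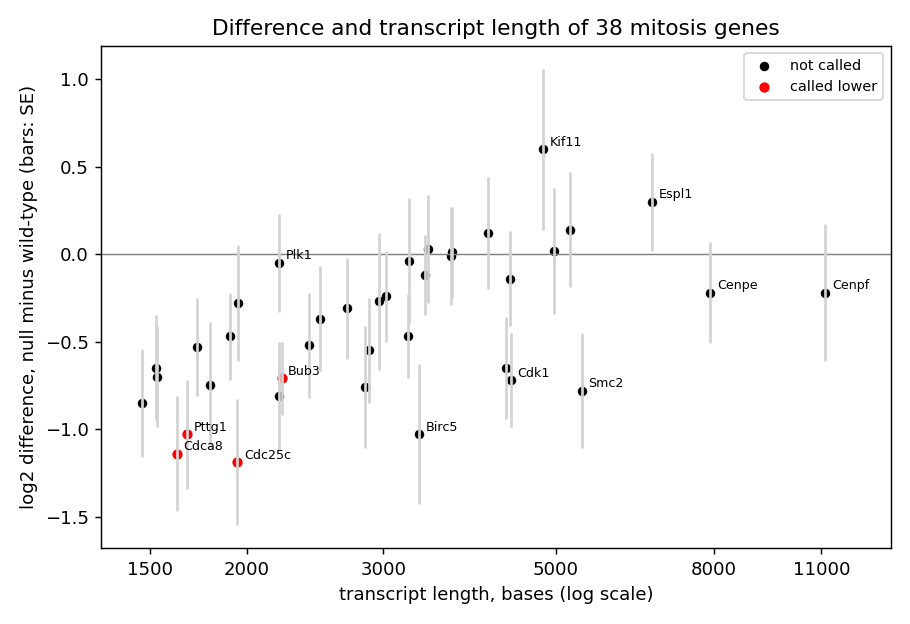
Log2 difference of each mitosis gene (vertical axis, null minus wild-type, bars SE) against transcript length in bases (horizontal log axis). The length is that of the longest transcript paired with a RefSeq entry. Red points are the 4 genes called lower. The red points lie among the shorter genes. Longer genes spread widely: Kif11, Espl1, Cenpe and Cenpf lie between -0.22 and 0.60, and Birc5, Smc2, Cdk1 and Smc4 lie at -1.03, -0.78, -0.72 and -0.65.

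Some levels also moved with other genes on the same chromosome in single tumors. The relative level of a gene is its log2 CPM minus the mean of the mitosis genes in the same tumor. It is then centered on the gene's median over all tumors. In null tumor 9 the median deviation of the genes of chromosome 3 was 0.47 on the log2 scale. There the relative levels of its 4 mitosis genes Ect2, Ccna2, Cenpe and Smc4 were 0.77, 0.75, 0.48 and 0.07. On chromosome 19 the median deviation was -0.48 in wild-type tumor 2 and -0.45 in wild-type tumor 6. In those tumors the relative level of Kif11 was -1.25 and -0.52, and that of Incenp was -0.70 in each. In null tumor 5, where the relative level of Kif11 was 1.49 and that of Incenp 0.59, the median of chromosome 19 was 0.22. In wild-type tumor 3 the median of chromosome 19 was 0.29, while the relative level of Kif11 was -0.11 and that of Incenp 0.25. These tumors are examples, and a relation over all tumors was not tested. The DNA copy number of the tumors was not measured here. With chromosome medians taken out, a fit added after the data were seen, Bub3, Cdc25c, Pttg1, Cdca8 and Cenpa were called lower, against 10.3% of all genes.

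Other genes of mitosis and of its transcription were read from the same fit. Of 101 other mitosis genes tested, 8 were lower (7.92%, against 8.64% of all genes) and 0 higher, with a median of -0.34. Cenpk, of the inner kinetochore, measured 10, 16.3 and 26.4 CPM in null and 28.7, 37.6 and 59.6 CPM in wild-type tumors. The groups did not overlap, and the difference was -1.24 ± 0.24 SE (edgeR adjusted p = 0.00541). The other 7 were Anapc15 (counted as 3200002M19Rik), Cenps (counted as Apitd1), Ska1, Pmf1, Cenph, Cenpl and Cks2, with differences from -1.31 to -0.71; the last 4 of these fall outside the rule for named genes and were chosen after their values were seen. Of 17 genes for transcription factors that act on mitotic promoters, 6 were lower (35.3%, against 8.64% of all genes) and 0 higher, with a median of -0.19, 6 differences above 0 and a highest of 0.74. Those lower were the NF-Y subunits Nfyc (-0.86) and Nfyb (-0.63), and the MuvB subunits Rbbp4 (-0.90), Lin37 (-0.70), Lin9 (-0.58) and Lin52 (-0.52), of which Lin9 and Lin52 were named after their values were seen. Foxm1 and Mybl2, which activate mitotic promoters, differed by -0.06 ± 0.37 and -0.08 ± 0.32 SE. Of 30 DNA replication genes, 3 were lower (10%, near the 8.64% of all genes) and 0 were higher, with a median of -0.29. Those lower were Orc6 (-1.03), Rpa2 (-1.03) and Rfc3 (-0.95). Mki67, the proliferation marker, differed by -0.41 ± 0.41 SE (edgeR adjusted p = 0.514). Without wild-type tumors 2, 4 and 7, none of these lists held a call, on fewer tumors. The differences were then -0.85 for Cenpk, -0.73 to -0.28 for the other 7 of its list, -0.75 for Nfyc, -0.62 for Nfyb, -0.71 for Rbbp4, -0.29 for Lin37, -0.47 for Lin9, -0.53 for Lin52, -0.75 for Orc6, -0.77 for Rpa2 and -0.52 for Rfc3.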

How the data were processed

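The deposited files hold counts, whole numbers of reads per gene symbol in 1 file per tumor; per the submitters' processing notes the authors used HTSeq 0.6.1, TopHat, TopHat2 2.0.12 and bcl2fastq 1.8.4 with build mm9. The annotation was not given in the sources used here, nor were the strand setting and filters. The 5 HTSeq totals that name no gene stayed out of library sizes and tests. The smallest chi-square between any of the 120 pairs of libraries was 32.8 per degree of freedom, so each was counted as 1 sample.

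The 38 genes, the lists and the tests were chosen with earlier results of these data known. Tests used edgeR 4.0.16 (R 4.3.3) quasi-likelihood with TMM factors and filterByExpr, with Benjamini-Hochberg adjustment over all tested genes at 0.05. Log2 CPM used a prior count of 2. DESeq2 1.42.0 and limma 3.58.1 (voom with quality weights) were alternatives. The scripts were checked on simulated data. Transcript lengths and overlaps came from GENCODE (build GRCm38) by symbol, with known length for 98.9% of tested genes; a length is that of the longest transcript paired with a RefSeq entry, and shorter isoforms exist. Near copies (95% identity) were found with BLAST+ 2.17.0. No coordinates of build mm9 were used.

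Full values are given for genes called, the 10 with the smallest p, the 4 highest per kb and those at or above 0.5; other genes by difference and counts. For each further list, up to 4 called genes with the smallest p were named. Alternatives were other scalings and filters, DESeq2, voom, a replicate block, a covariate for the multi-aligned share, a length trend per library, and leaving out each tumor in turn or wild-type tumors 2, 4 and 7. A correction by chromosome medians was chosen after seeing the data. A result for 1 marker gene is not reported here.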

Additional observations from a re-analysis of the deposited data

Results flagged for a closer look

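In 80 groups of tumors tested (38 mitosis genes, Mki67 and the mean of the mitosis genes, each in 2 groups), 12 held a tumor set apart from the others of its group by Dixon's rule. That rule flags about 1 in 20 groups of normally distributed values. Single genes were tested in CPM, which need not be so distributed, and all 12 tumors set apart were high. The 12 of 80 are therefore not read against that rate. The same libraries enter every gene, so the 12 are not separate events.

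Null tumor 5 was the tumor set apart for 8 genes. It measured 189 CPM for Bub3 (next null tumor 129), 109 for Ttk (next 59.5), 206 for Incenp (next 102), 626 for Kif11 (next 210), 125 for Ndc80 (next 69.4), 127 for Nuf2 (next 58.4), 1563 for Top2a (next 896) and 1802 for Mki67 (next 968). Without null tumor 5, 14 mitosis genes were called lower.

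Wild-type tumor 1 was set apart for Espl1 (102 CPM, next wild-type tumor 58.1), Incenp (209, next 76.8) and Kif11 (258, next 131). Null tumor 9 was set apart for Cdc20 (293 CPM, next null tumor 169).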

How the results depend on the processing

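None of the 4 called differences changed sign under any alternative, but with the multi-aligned share Pttg1 moved from -1.03 to -0.03, Bub3 from -0.71 to -0.19, Cdc25c from -1.19 to -0.75 and Cdca8 from -1.14 to -0.70. Genes called over the whole table numbered 2378, and 318 with a replicate block, 10 with the multi-aligned share as a covariate and 256 without wild-type tumors 2, 4 and 7, with 1471 to 3033 over the fits that leave out 1 tumor each (1471 without wild-type tumor 4 and 1555 without wild-type tumor 7). Mitosis genes called lower numbered 4, and 0 with the replicate block, 0 with the multi-aligned share, 0 without wild-type tumors 2, 4 and 7 and 2 with the length correction. With voom 5 were called lower, where 2440 genes were called over the whole table. These were Bub3, Cdc25c, Cdca8, Smc2 (adjusted p = 0.0437) and Smc4 (adjusted p = 0.0369), while Pttg1 was not called (adjusted p = 0.126). Leaving out 1 tumor gave 0 to 14: 14 without null tumor 5, 9 without wild-type tumor 3, 2 without null tumor 1 or 3 or wild-type tumor 4, and 0 without null tumor 2, 4 or 7 or wild-type tumor 2 or 7. No mitosis gene was called higher in any of these fits. The median of the mitosis genes ran from -0.66 with the block to -0.15 with the multi-aligned share. The labels number tumors in both groups, but same-numbered tumors did not deviate together (7 pairs, r -0.17 to 0.24, 2 over 0.1, 0 wild-type tumors closest to their own number). The main test did not pair tumors by number. Low correlations cannot show that no pairing exists, and the labels do not say. The cause of these changes was not tested. Counting error is small at 104 reads or more. Signs changed for 14 mitosis genes, none of them among the 4 called. Their differences after the change were as follows. With upper-quartile scaling the values were Bub1 -0.01, Kif4 -0.02, Kif20a -0.02 and with no low-count filter the values were Bub1b 0.03. With the stricter filter the values were Kif20a -0.00 and with voom the values were Bub1 -0.19, Plk1 0.05, Incenp 0.03, Kif4 -0.27, Kif20a -0.03, Ect2 -0.20, Top2a -0.10. With the replicate block the values were Bub1 -0.28, Kif4 -0.29, Kif20a -0.16, Ect2 -0.23, Top2a -0.08 and with the multi-aligned share the values were Bub1 -0.06, Bub1b 0.03, Mad2l1 0.01, Ccnb2 0.12, Ccna2 0.00, Cdc20 0.29, Plk1 0.29, Aurka 0.03, Aurkb 0.05, Kif20a -0.08, Top2a -0.04. With the length correction the values were Bub1 -0.03, Plk1 0.05, Kif4 -0.20, Kif20a -0.08, Top2a -0.08 and with chromosome medians taken out the values were Bub1 -0.05, Kif4 -0.35, Ect2 -0.01. With wild-type tumors 2, 4 and 7 left out the values were Bub1 -0.05, Bub1b 0.09, Plk1 0.03, Kif20a -0.06. Over the fits that leave out 1 tumor, the ranges that crossed 0 were Bub1 -0.12 to 0.14, Bub1b -0.19 to 0.13, Plk1 -0.20 to 0.06, Incenp -0.35 to 0.40, Kif4 -0.29 to 0.16, Kif20a -0.14 to 0.12, Ect2 -0.15 to 0.23, Top2a -0.14 to 0.25.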
